A study of Dahlia pinnata with 6 samples.

Results

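Transcript contigs with more small RNA in the white than in the red tissue of bicolor dahlia petals numbered 54 of 46967. They were chosen by their own values. A contig had to reach a mean of 5 counts scaled to a library total of 1000000 reads (CPM) over 6 libraries. Its lowest white value had to lie above its highest red value, and its white mean had to be at least 2 times its red mean. The difference between white and red in these contigs is therefore a description and was not tested. The contigs came from 49 Trinity genes, the name without its isoform number, which Trinity uses for transcripts assembled from one graph of overlapping reads. Of the 4321 contigs at the abundance minimum, 1.25% met the rule.

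All petals came from the bicolor dahlia cultivar Yuino, grown in a greenhouse with no treatment named, and listed by the submitters both as Dahlia pinnata and as D. variabilis. The pigmented red and the unpigmented white tissue were dissected from each other and total RNA was extracted from each. There were 3 small RNA libraries of each tissue, and the age of the plants and whether libraries came from separate plants are not given in the sources used here. P-values therefore cover variation among the sequenced libraries, some of which could be technical. In dissected tissue, a difference in the make-up of the cells and a difference in RNA per cell cannot be told apart. The contigs carry no gene names in the table and none was assigned here, so petal markers were not checked.

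Plant small interfering RNAs (siRNAs) are cut by Dicer-like enzymes from long double-stranded RNA and guide Argonaute proteins to matching transcripts. DCL4 is the Dicer-like enzyme best known for siRNAs that act after transcription, and RNA-dependent RNA polymerases can turn a cleaved transcript into more double-stranded RNA, so that a silenced transcript becomes a source of many siRNAs. In petunia and dahlia petals, white areas have been linked to such silencing of chalcone synthase, the first enzyme committed to flavonoid synthesis. The study asked whether flavonoids hold back siRNA production by DCL4 as a whole. Which of the contigs, if any, belong to chalcone synthase was not analysed here.

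Tabulated reads per library ranged from 3277753 to 3662222. Every table entry had at least 1 read in red replicate 1, so contigs without a read in that library were not analysed here, and low counts there are biased upward. White replicate 2 stood apart: it was the lowest white library for 60.7% of the contigs at the abundance minimum. Over those contigs the median ratio of the white to the red mean was 0.883, and 32.1% had a higher mean in white. Red tissue had more contigs by the mirrored rule, 86 or 1.99%, but that order depended on the scaling. With trimmed-mean (TMM) scaling, which centres most contigs on no change, 83 contigs met the rule in white and 47 the mirrored rule in red. With scaling to the microRNA total these counts were 130 and 19. Each of the 54 contigs met the rule under both scalings. Without red replicate 2, 93 contigs met the rule in white, of which 48 were among the 54.

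**Figure D1:**
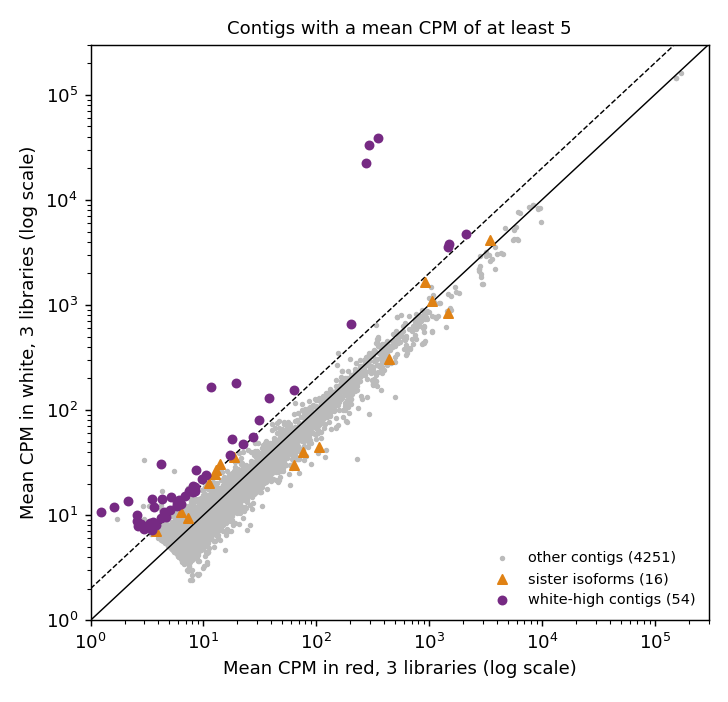
Mean CPM in red against mean CPM in white, both on log scales, for the 4321 contigs with a mean of at least 5 CPM. The solid line marks equal means and the dashed line a ratio of 2; the 54 white-high contigs lie on or above the dashed line by the rule, and 3 of them stand far from all others.

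White-high contigs took 0.546%, 0.868% and 0.578% of the reads in red replicates 1, 2 and 3 and 11.0%, 9.53% and 12.1% in white replicates 1, 2 and 3. The means were 0.664% ± 0.18 in red tissue against 10.9% ± 1.3 in white tissue (SD, n = 3 each). This mass was very unevenly spread. TRINITY_DN1637_c0_g1_i1, TRINITY_DN1637_c0_g1_i2 and TRINITY_DN122_c0_g2_i5 held 86.9% of the white reads of all 54 but 14.0% of their red reads. Another 5 contigs, all with names that begin TRINITY_DN4628, took 0.529% ± 0.12 of the reads in red tissue against 1.28% ± 0.41 in white tissue (SD, n = 3 each). The 46 other contigs together took 0.0433% ± 0.0061 in red tissue against 0.139% ± 0.0077 in white tissue (SD, n = 3 each). Their summed share was the steadiest of the 3 groups, from 0.0380% to 0.0499% in red libraries and from 0.132% to 0.147% in white ones. For comparison, the 86 red-high contigs took 0.654% ± 0.060 of the reads in red tissue against 0.266% ± 0.030 in white tissue (SD, n = 3 each).

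**Figure D2:**
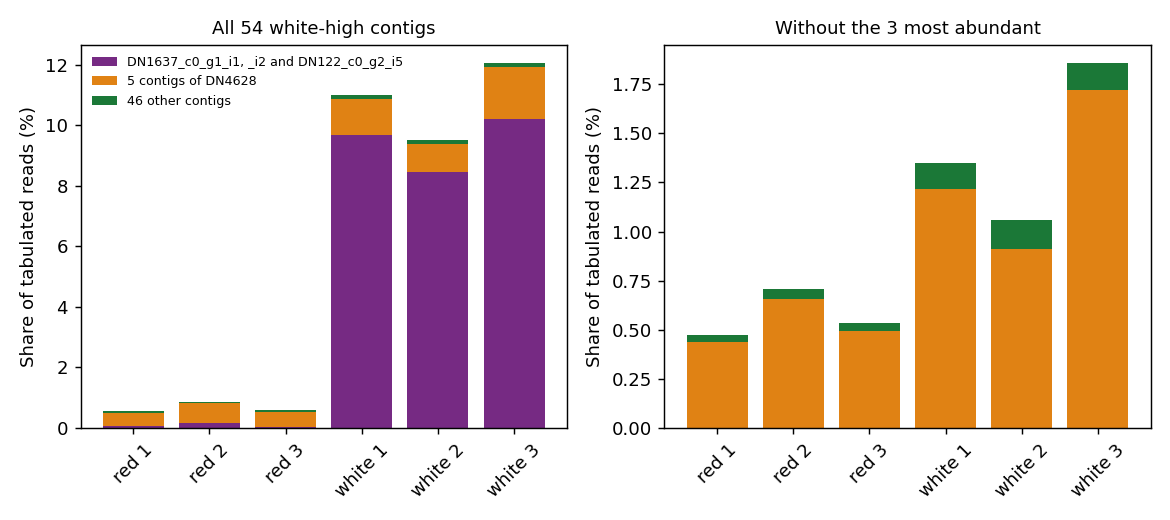
Share of all tabulated reads, in percent, taken by the white-high contigs in each library, stacked by group (left), and the same without the 3 most abundant (right, on its own scale). The left bars stand between 0.546% and 0.868% in red libraries and between 9.53% and 12.1% in white ones, and most of the white bar is the 3 most abundant contigs.

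The size of the difference ran from a ratio of 2.02 to one of 114, with a median of 2.43. Most contigs lay near the threshold: 37 of 54 (68.5%) had ratios between 2 and 3, and 8 had ratios between 3 and 5. Ratios between 5 and 10 were found in 5 contigs and between 10 and 20 in 1. The 3 highest ratios, 81.4, 110.1 and 114, belonged to the 3 most abundant contigs, and no ratio lay between 20 and 80. The red-high contigs had a nearly equal median ratio of 2.33, taken as red over white, but their largest was 6.74.

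Mean abundance over the 6 libraries ran from 5.22 to 19526 CPM with a median of 9.97, against a median of 12.7 over all contigs at the abundance minimum. Of the 54, 28 had a mean under 10 CPM, 17 lay between 10 and 100 CPM and 9 reached 100 CPM or more. In red tissue the 54 ranged from 1.23 to 2116 CPM and in white tissue from 7.18 to 38701 CPM. The most abundant white-high contig in red, TRINITY_DN4628_c0_g4_i1, was thus not one of the 3 that led in white.

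TRINITY_DN1637_c0_g1_i2 stood at 283, 599 and 173 CPM in red replicates 1, 2 and 3 and at 39332, 33739.7 and 43030.2 CPM in white replicates 1, 2 and 3. Isoform TRINITY_DN1637_c0_g1_i1 stood at 208, 539 and 127 CPM in red and at 33956, 28966 and 36876 CPM in white. TRINITY_DN122_c0_g2_i5 stood at 219.8, 465 and 147 CPM in red and at 23443, 22024 and 22199 CPM in white. All 3 were highest in red replicate 2 and lowest in red replicate 3, and white replicate 2 was their lowest white library. Within a replicate number the ratio of white to red for TRINITY_DN1637_c0_g1_i1 was therefore 163, 53.7 and 291 for numbers 1, 2 and 3. By mean abundance in white these contigs ranked 4, 5 and 6 among all contigs, and in red they ranked 202, 244 and 250.

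TRINITY_DN122_c0_g2_i5 had 0.448, 0.409 and 0.490 reads for each read of the TRINITY_DN1637_c0_g1 isoforms in the red libraries. In the white libraries it had 0.320, 0.351 and 0.278. These ratios were lower in each white library than in each red one, so the TRINITY_DN1637_c0_g1 isoforms differed more between the tissues, while all 6 ratios stayed between 0.278 and 0.490.

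The TRINITY_DN4628 names held the next most abundant contigs. TRINITY_DN4628_c0_g4_i1 stood at 1727, 2655 and 1964 CPM in red replicates 1, 2 and 3 and at 4734, 2852 and 6767 CPM in white. The ratio of its means was 2.26, but between libraries numbered 2 it was 1.07, and the gap between the tissues was 197 CPM. TRINITY_DN4628_c0_g1_i12 stood at 1245, 1856 and 1390.0 CPM in red and at 3486, 3000.4 and 4983 CPM in white. Red replicate 2 was again the highest red library and white replicate 2 the lowest white one. TRINITY_DN4628_c0_g1_i9 had nearly the same values, with means of 1467 ± 294 CPM in red tissue against 3540 ± 862 CPM in white tissue (SD, n = 3 each). TRINITY_DN4628_c0_g1_i3 was less abundant, at 205 ± 55.2 CPM in red tissue against 658 ± 257 CPM in white tissue (SD, n = 3 each), with a ratio of 3.21. A contig of a different read cluster, the level above the Trinity gene, had the same leading name: TRINITY_DN4628_c1_g1_i1 stood at 5.13 ± 0.87 CPM in red tissue against 14.8 ± 4.7 CPM in white tissue (SD, n = 3 each).

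Below these contigs, 2 single-isoform contigs had ratios far above the median. TRINITY_DN20402_c0_g1_i1 stood at 9.83, 17.9 and 7.63 CPM in red replicates 1, 2 and 3 and at 143, 191 and 161 CPM in white. Its ratio of 14.0 was the largest outside the 3 most abundant contigs. TRINITY_DN35702_c0_g1_i1 stood at 22.4, 12.5 and 23.5 CPM in red and at 240.3, 142 and 160.4 CPM in white, a ratio of 9.29. Red replicate 2 was its lowest red library, unlike in the contigs described so far.

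Other large ratios rested on few red reads. TRINITY_DN19007_c0_g1_i1 had 5, 6 and 2 reads in red replicates 1, 2 and 3 and 35, 34 and 42 reads in white. The ratio of its means was 8.80, and the ratio of its summed reads had an exact 95% interval, for counting error alone, from 4.87 to 16.8. TRINITY_DN14023_c0_g1_i7 had 6, 9 and 2 reads in red and 39, 39 and 45 in white, an interval from 4.41 to 13.03. TRINITY_DN311_c0_g1_i2, with 18, 22 and 5 reads in red and 57, 116 and 144 in white, had an interval from 5.23 to 10.02. Red replicate 3 was the lowest library in all of these. The rule chose these contigs for a high ratio, so their intervals are no support for one. Libraries of a tissue also differed by more than counting error, which the intervals leave out. Of the 54 contigs, 1 had under 3 reads in red replicate 1: TRINITY_DN14023_c0_g1_i1, with 1, 12 and 9 reads in red and 36, 57 and 47 in white.

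**Figure D3:**
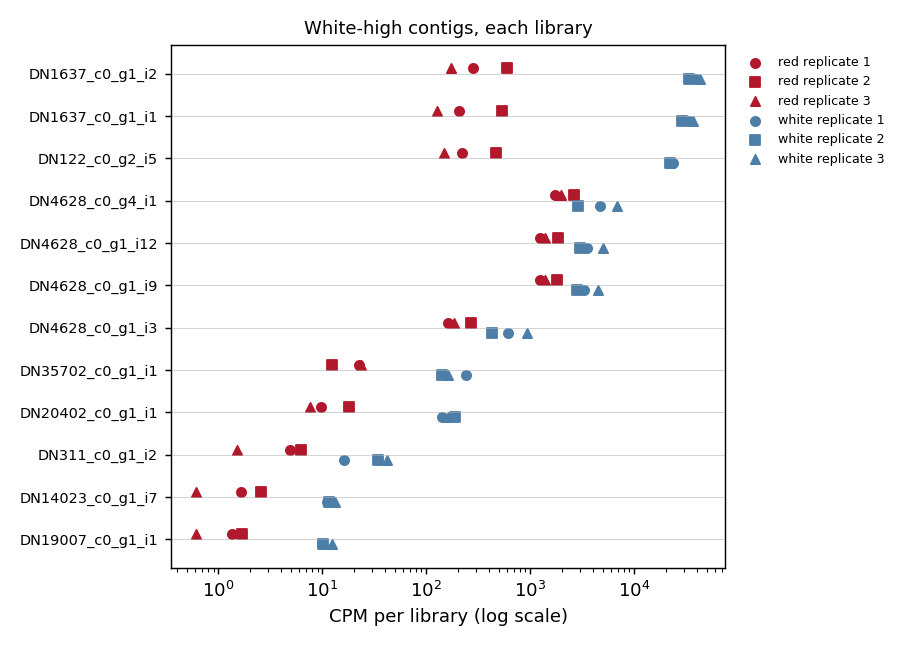
CPM in each library, on a log scale, for 12 white-high contigs: the 9 with the highest white mean and those among the 8 with the largest ratio, ordered by white mean. Symbols mark the replicate number; red replicate 2 (squares) is the highest red library for 11 of the 12, and the spread among red libraries is wider than among white ones for the 3 contigs at the top.

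The red libraries were ordered differently in white-high contigs than in contigs at large. Red replicate 2 was the highest red library for 29 of 54 white-high contigs (53.7%), against 24.9% of all contigs at the abundance minimum. Without the TRINITY_DN4628 names and the 3 most abundant, it was highest for 22 of 46 (47.8%). Over all contigs red replicate 2 was more often the lowest red library, for 47.0%, against 14.8% of the white-high contigs. White replicate 2, lowest for 60.7% of contigs at large, was lowest for 42.6% of the white-high ones. These shares are given without a test, since isoforms and contigs of one assembly share reads and libraries. Their part in the difference between the tissues was not tested.

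**Figure D4:**
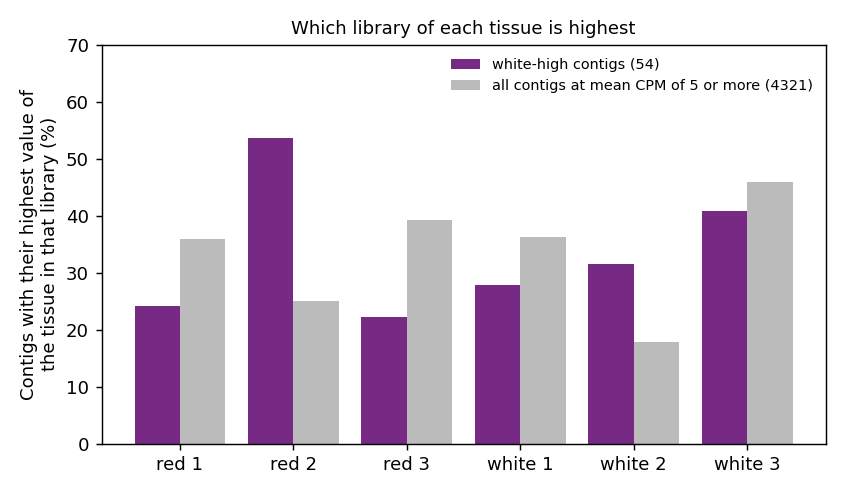
Percentage of contigs that had their highest red value in each red library and their highest white value in each white library, for the 54 white-high contigs (purple) and all 4321 contigs at the abundance minimum (grey). Red replicate 2 is highest for 53.7% of white-high contigs and for 24.9% of all contigs.

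Replicates of a tissue varied more in these contigs than in contigs at large. The median coefficient of variation, the SD as a percentage of the mean, was 34.4% among red and 26.6% among white libraries, against 20.5% and 19.6% over all contigs at the abundance minimum. The white-high contigs also had fewer reads in red, where counting error weighs more: their median red mean was 5.96 CPM, against 13.3 CPM. In white their median mean was the higher one, at 14.5 CPM against 11.9 CPM. The part of read numbers in the spread was not tested. TRINITY_DN5662_c0_g1_i6 was the most variable in white, at 78.0, 250.5 and 60.8 CPM, over red values of 21.6, 49.8 and 43.6 CPM. White replicate 2 thus carried most of its ratio of 3.39. Within replicate numbers 1, 2 and 3, 42, 35 and 44 of the 54 contigs were at least 2 times higher in white, with median ratios of 2.76, 2.33 and 2.99. The rule chose the contigs by these same values, so the counts and medians describe them and support nothing.

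Contigs at the edges of the rule differed little from those just outside. By abundance, the lowest inside was TRINITY_DN22903_c0_g1_i1 at a mean of 5.22 CPM, and the nearest outside was TRINITY_DN26996_c0_g1_i1 at 4.998 CPM. By ratio, TRINITY_DN5386_c0_g1_i5 lay inside at 2.02 and TRINITY_DN5114_c0_g1_i2 outside at 1.97. By separation, the lowest white value of TRINITY_DN3844_c5_g1_i2 lay 0.057 CPM above its highest red value. That of TRINITY_DN11155_c0_g1_i1, outside, lay 0.18 CPM below. With no minimum ratio 186 contigs were separated upward in white, 4.3% of those at the abundance minimum, and 132 of them had a ratio under 2. Another 21 contigs had a ratio of at least 2 but overlapped.

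All 54 passed the low-count filter of edgeR, and 23 passed its quasi-likelihood test as higher in white at an adjusted p under 0.05, against 0.528% of all 7001 tested. With the replicate number as a block 47 passed, against 2.24%: 21 of the 23 and 26 others. The 2 that passed without the block alone were TRINITY_DN1637_c0_g1_i1 and TRINITY_DN4628_c0_g1_i3. The rule used the same contrast, so nothing is read from these counts.

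The 49 Trinity genes were mostly of 1 contig. In 32 of them the white-high contig was the single isoform in the table. Such contigs made up 59.3% of the 54, against 38.7% of all contigs at the abundance minimum. In 4 genes more than 1 isoform met the rule, for 9 contigs in all: TRINITY_DN1637_c0_g1, TRINITY_DN4628_c0_g1, TRINITY_DN337_c0_g1 and TRINITY_DN14023_c0_g1. Isoforms share sequence, and how reads that match several of them were assigned is not given in the sources used here, so counts of isoforms of one gene are uncertain and not independent of each other.

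Where 2 isoforms of a gene both met the rule, the ratio of their counts varied little over the libraries in some pairs and widely in others. TRINITY_DN1637_c0_g1_i1 had 0.863, 0.859 and 0.857 reads for each read of isoform 2 of that gene in the white libraries. In the red libraries it had 0.735, 0.900 and 0.735. TRINITY_DN4628_c0_g1_i9 had between 0.902 and 0.989 reads for each read of TRINITY_DN4628_c0_g1_i12 over the 6 libraries. TRINITY_DN4628_c0_g1_i3 had 0.136 ± 0.0072 in red tissue against 0.169 ± 0.023 in white tissue, on the same scale (SD, n = 3 each). TRINITY_DN337_c0_g1_i1 had 0.730 ± 0.083 reads for each read of TRINITY_DN337_c0_g1_i6 in red tissue against 0.755 ± 0.22 in white tissue (SD, n = 3 each), so that ratio differed by less than its spread. TRINITY_DN14023_c0_g1_i7 had from 0.222 to 6 reads for each read of TRINITY_DN14023_c0_g1_i1, and neither isoform had over 12 reads in a red library.

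Sister isoforms, the contigs of the same 49 genes that did not meet the rule, numbered 39 in 16 genes. Of these, 16 reached a mean of 5 CPM, and 11 of the 16 had a higher mean in white and 5 a lower one. The 5 were all from TRINITY_DN122_c0_g2. By edgeR's quasi-likelihood test, adjusted over all 7001 tested, 1 of the 18 sisters that passed the filter was higher in white (background 0.528%) and 3 were lower (background 0.528%). With the replicate number as a block 7 were higher (background 2.24%) and 4 lower (background 2.59%). The rule itself keeps abundant isoforms with a large separated rise out of the sisters, so these counts are not compared further.

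TRINITY_DN122_c0_g2 had all 5 of its sisters lower in white while its white-high isoform was higher. Its most abundant sister, TRINITY_DN122_c0_g2_i4, stood at 1560.3, 1501 and 1314 CPM in red replicates 1, 2 and 3 and at 1061, 689 and 739 CPM in white. Every red value lay above every white value (edgeR log2 fold change -0.66 ± 0.15 SE, adjusted p = 0.059, and 0.0035 with the replicate block). Separation in that direction was found in 17.2% of all contigs at the abundance minimum. TRINITY_DN122_c0_g2_i2 fell from 105 ± 8.1 to 44.6 ± 7.0 CPM (SD, n = 3 each; edgeR log2 fold change -1.08 ± 0.17 SE, adjusted p = 0.0077). TRINITY_DN122_c0_g2_i6 fell from 63.0 ± 6.3 to 29.7 ± 3.4 CPM (edgeR adjusted p = 0.033), and TRINITY_DN122_c0_g2_i3 from 76.1 ± 7.6 to 39.6 ± 9.3 CPM (edgeR adjusted p = 0.049). TRINITY_DN122_c0_g2_i1 stood at 441 ± 36.4 and 308 ± 30.1 CPM (edgeR adjusted p = 0.25). The call of isoform 2 held under all 12 alternatives, that of isoform 6 under 8 and that of isoform 3 under 6. The calls of isoforms 6 and 3 were lost without red replicate 1 or white replicate 3, that of isoform 6 also without white replicate 1, and that of isoform 3 also without red replicate 2 or white replicate 2; both were lost with a filter at mean CPM 5, and isoform 3 with the white-high contigs left out before scaling (edgeR adjusted p up to 0.15 and 0.19).

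The make-up of TRINITY_DN122_c0_g2 is described here and was not tested. The rule picked its white-high isoform for being higher in white and left the sisters out, which favours a larger share in white. The shares of the gene's reads are therefore no support for a difference between the tissues. TRINITY_DN122_c0_g2_i5 held 8.71%, 17.5% and 7.03% of the gene's reads in red replicates 1, 2 and 3 and 93.8%, 95.3% and 95.2% in white. The gene as a whole was 9.83 times higher in white. Summed sisters stood at 2302, 2189 and 1940 CPM in red and at 1536, 1089 and 1130 CPM in white, written to the nearest CPM (exact permutation p = 0.1, two-sided, the smallest that 3 libraries against 3 can give). The summed sisters of TRINITY_DN4628_c0_g1 had means of 5435 CPM in red and 6871 CPM in white, with the same p by that test. Neither sum by gene was planned, so these p-values are no support for a difference.

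In TRINITY_DN4628_c0_g1 all 3 sisters had a higher mean in white, and edgeR called 1 higher and 0 lower (background 0.528% in each direction). TRINITY_DN4628_c0_g1_i7 missed the rule only by its ratio of 1.80. It stood at 814, 1076 and 883 CPM in red and at 1555, 1249 and 2194 CPM in white, and rose by the edgeR test (log2 fold change 0.98 ± 0.17 SE, adjusted p = 0.020). Leaving out red replicate 1 (edgeR adjusted p = 0.060), red replicate 3 (0.11) or white replicate 3 (0.065) ended that call. The gene's most abundant isoform, TRINITY_DN4628_c0_g1_i5, stood at 3453 ± 671 CPM in red tissue against 4122 ± 274 CPM in white tissue (edgeR adjusted p = 0.34), and TRINITY_DN4628_c0_g1_i2 at 1058 ± 64.5 and 1083 ± 204 CPM (edgeR adjusted p = 0.62). The 3 white-high isoforms had 0.502, 0.618 and 0.627 reads for each read of the 3 sisters in red libraries. In white libraries they had 1.05, 0.978 and 1.46.

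In TRINITY_DN337_c0_g1 and TRINITY_DN412_c0_g1 the sisters lay close to the rule, unlike TRINITY_DN419_c1_g1_i1, which overlapped at a ratio of 1.30 (edgeR adjusted p = 0.49). The 3 sisters of TRINITY_DN337_c0_g1 had ratios of 1.91, 2.17 and 2.04 and missed it because red replicate 1 lay above white replicate 2, the first of them also by its ratio. TRINITY_DN337_c0_g1_i10, for example, stood at 22.9, 10.5 and 8.54 CPM in red and at 30.75, 21.1 and 39.4 CPM in white tissue (edgeR adjusted p = 0.10, and 0.013 with the replicate block). TRINITY_DN337_c0_g1_i2 had an edgeR adjusted p of 0.10 and 0.0075 with the block, and TRINITY_DN337_c0_g1_i14 one of 0.22 and 0.046 with the block. Both sisters of TRINITY_DN412_c0_g1_i2 were separated upward, against 4.3% of all contigs at the abundance minimum, with ratios of 1.91 and 1.83. TRINITY_DN412_c0_g1_i1 stood at 15.3, 15.1 and 7.93 CPM in red and at 27.0, 26.1 and 19.97 CPM in white tissue (edgeR adjusted p = 0.088, and 0.0039 with the block).

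**Figure D5:**
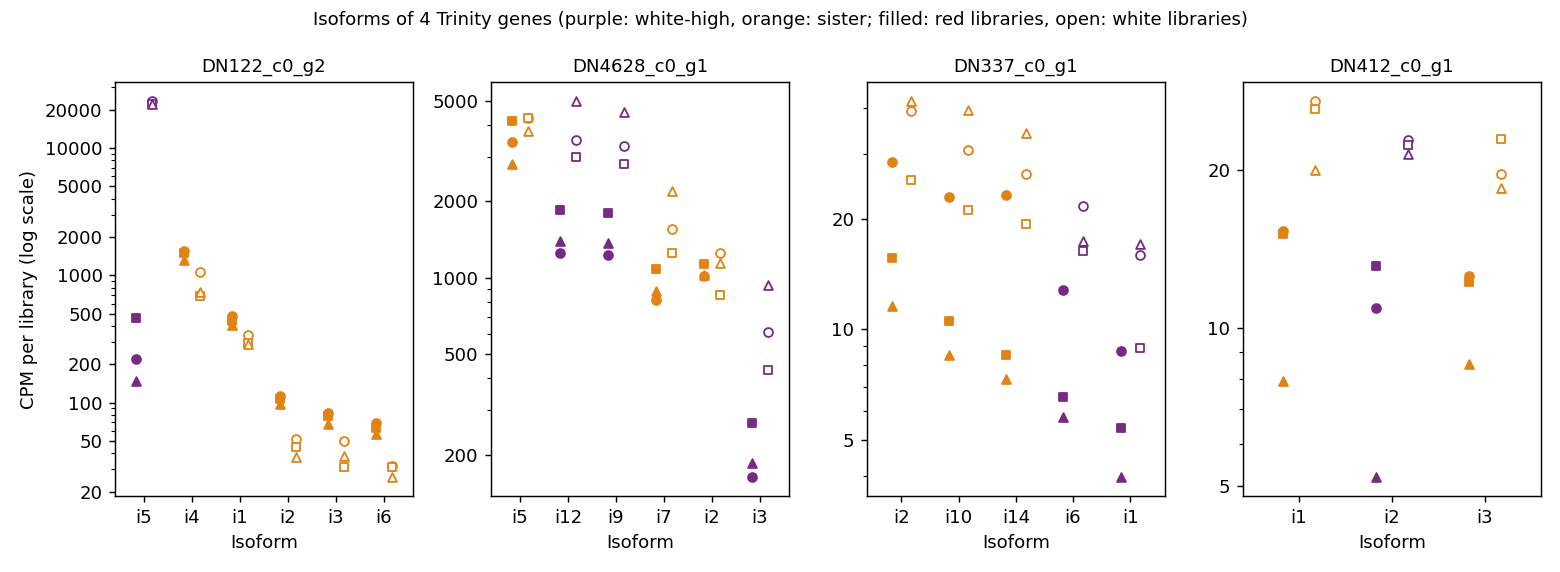
CPM per library, on a log scale with a range of its own in each panel, for the isoforms of 4 Trinity genes, ordered by mean abundance (purple for white-high contigs, orange for sisters; filled for red and open for white libraries; circles, squares and triangles for replicates 1, 2 and 3). In DN122_c0_g2 isoform 5 is higher and the 5 sisters are lower in every white library than in every red one. Of all contigs at the abundance minimum, 4.3% were separated upward and 17.2% downward in white. In DN337_c0_g1 and DN412_c0_g1 sisters and white-high isoforms have their means shifted in the same direction.

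Over the 16 genes with sisters, the white-high isoforms held a larger share of their gene's reads in every white library than in every red one in 6 genes, a smaller one in 1, and the shares overlapped in 9. The rule picked those isoforms for being higher in white and left the sisters out, so it favours such a rise and the counts support nothing. Summed sisters had a higher mean in white in 13 genes and a lower one in 3, TRINITY_DN122_c0_g2, TRINITY_DN5662_c0_g1 and TRINITY_DN311_c0_g1. In TRINITY_DN5662_c0_g1 and TRINITY_DN311_c0_g1 the summed sisters had 8 reads or fewer in every library, too few to read a direction from. The sum over all 39 sisters was 7684 ± 960 CPM in red tissue against 8316 ± 608 CPM in white tissue (SD, n = 3 each; exact permutation p = 0.5, two-sided), a difference within the spread of the libraries. That sum joined differences of opposite sign: the log2 ratio was 0.11 over all sisters, -0.64 without those of TRINITY_DN4628_c0_g1 and 0.35 without those of TRINITY_DN122_c0_g2. Each of the latter 2 had an exact permutation p of 0.1, the smallest possible. Both sums were formed after the values were seen, so these p-values are no support for a difference. With TMM-scaled totals, or with totals that left out the white-high contigs, the ratio over all sisters was 0.27 (exact permutation p = 0.2).

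Trinity genes without a white-high contig, in the same read clusters, had 27 contigs. Of these, 6 reached the abundance minimum, and 0 of the 6 were separated in either direction, against 4.3% upward and 17.2% downward of contigs at large. So few contigs cannot be set apart from those shares. Of the 21 under the minimum, 1 was separated upward, TRINITY_DN19007_c0_g2_i1 with 1, 2 and 3 reads in red and 8, 10 and 5 in white, and 1 downward. Over all contigs under the minimum the shares were 3.96% upward and 5.99% downward, so nothing is read from these counts. The most abundant of the 27, TRINITY_DN122_c0_g1_i2, stood at 709, 637 and 725 CPM in red replicates 1, 2 and 3 and at 641, 502 and 633 CPM in white. Its values in the tissues overlapped. At 2 read clusters white-high contigs came from more than 1 gene. Besides TRINITY_DN4628_c0, these were TRINITY_DN484_c0_g1_i1, at 2.59 ± 0.15 CPM in red tissue against 8.79 ± 3.3 in white tissue, and TRINITY_DN484_c0_g2_i4, at 3.65 ± 0.35 and 11.9 ± 3.1 CPM (SD, n = 3 each).

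MicroRNAs can start siRNA production by cutting a transcript that is then made double-stranded. Of a list of 8 microRNAs known for this in plants, 4 were in the table under their exact names, which ran to at most 6 characters. miR390, the trigger of the TAS3 siRNAs of auxin response, had 2, 0 and 5 reads in red and 4, 5 and 1 in white. miR482, which targets transcripts of NLR immune receptors, had 5, 2 and 3 reads in red and 1, 4 and 2 in white. miR161, which in Arabidopsis targets transcripts of pentatricopeptide repeat proteins, had 6, 1 and 1 reads in red and 0 in each white library. Red and white overlapped in miR390 and miR482 but not in miR161, and all 3 had 6 reads or fewer in every library. Of contigs under a mean of 5 CPM, 5.99% were separated with red above white. Every table entry had a read in red replicate 1, so low counts there, that of miR161 included, are biased upward. miR393, which targets auxin receptor transcripts, was the single one to pass the filter, at 11.2 ± 6.1 CPM in red tissue against 12.5 ± 1.3 CPM in white tissue (SD, n = 3 each; edgeR adjusted p = 0.82). For this microRNA list edgeR called 0, with 0 at an unadjusted p under 0.05, and DESeq2 called 0; both tested miR393 alone. With no filter on low counts all 4 were tested, and edgeR called 0, with 1 at an unadjusted p under 0.05.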

How the data were processed

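Small RNA libraries of red and white petal tissue (3 each, grouped by the sample titles) were analysed from 1 deposited table of counts, whole numbers of reads for 46967 Trinity contigs and 116 microRNA names, not normalised. The submitters' processing notes name cutadapt and Bowtie2; versions, settings and read lengths are not given in the sources used here. White-high contigs, lists and named contigs were chosen with earlier results of these data known. Named by rule were the 6 most abundant in white, the 4 with the largest ratio, genes with several white-high contigs, contigs nearest each threshold and the 12 most abundant sisters; others were named after their values were seen. Contig sequences were not used here.

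The tissues were tested against each other in edgeR 4.0.16 under R 4.3.3 with the quasi-likelihood test (TMM, minimum count 10, robust dispersion). Adjustment was Benjamini-Hochberg over 7001 entries with a threshold of 0.05, and the script was tested on simulated data. A standard error (SE) is the log2 fold change divided by the square root of F. CPM use library totals as deposited; scaling by those totals in edgeR moved the median log2 fold change over those entries from -0.01 to -0.16. Single values per library were compared by exact permutation tests (scipy 1.17.1). Intervals are exact binomial (Clopper-Pearson) and cover counting error only. No pair of libraries of a tissue agreed within sampling noise (lowest chi-square per degree of freedom 5.10). Deviations from group means of same-numbered libraries correlated at 0.20, 0.30 and 0.20, above the limit of 0.1 used for pairing, which the labels do not state; values from a blocked fit on the replicate number or its calls appear beside the named results that it altered. Alternatives were other thresholds and scalings, DESeq2 (1.42.0), other filters, summed isoforms and each library left out.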

Additional observations from a re-analysis of the deposited data

How the results depend on the processing

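The 54 white-high contigs became 447 with a mean CPM minimum of 1, 16 with one of 20, 10 with a ratio of at least 4, 186 with no minimum ratio, 83 with TMM-scaled totals and 130 with scaling to the microRNA total. With isoforms summed, 56 Trinity genes met the rule, of which 40 were among the 49 genes of the white-high contigs. With 1 library left out, 57 to 93 contigs met it, highest without red replicate 2. Replacing separation by white above red within each replicate number, the paired form of the rule, gave 63. Looser thresholds make the rule easier to meet by construction, and fewer libraries make its separation easier to meet. With 1 library left out, 42 to 48 of the 54 contigs still met the rule. The cause of the changes with scaling was not tested. The share of reads, higher in white by 10.2 percentage points, was higher by 0.849 points without the 3 most abundant contigs and by 0.096 points also without the TRINITY_DN4628 names, and by 9.61 to 10.9 points with 1 library left out. The 3 sister isoforms called lower became 1 with a filter at mean CPM 5, and 1 to 4 with 1 library left out, lowest without red replicate 1 or white replicate 3. The 1 called higher became 5 with DESeq2, 5 with no filter on low counts and 7 with the replicate block, and 0 to 3 with 1 library left out, lowest without red replicate 3 or white replicate 3. The causes were not tested. With the block the summed sisters had a log2 ratio of 0.12 (exact paired sign-flip p = 0.5) and 0 siRNA trigger microRNAs passed; the block changed no call beyond those printed here, in the report or among the other observations, except that it added the sister TRINITY_DN412_c0_g1_i3. The summed sisters' log2 ratio of 0.11 turned to -0.013 without the most abundant sister and -0.64 without the TRINITY_DN4628_c0_g1 sisters, which were left out by choice after seeing the data, as were those of TRINITY_DN122_c0_g2 (0.35), and ran from 0.026 to 0.21 with 1 library left out. Contigs under 5 CPM have few reads, so small differences there were not detectable at this depth.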

Other observations

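Of the 42646 contigs below the abundance minimum, 1275 (2.99%) were separated upward in white with a ratio of at least 2, and 2015 (4.72%) were separated in the mirrored way. All of them had a read in red replicate 1, as the whole table does, so low counts there are biased upward and contigs with small RNA in white tissue alone are not among them. Of the 23 sister isoforms under 5 CPM, 14 had a higher mean in white and 9 a lower one; 3 were separated upward and 1 downward. Over all contigs below the minimum, whatever the ratio, 3.96% were separated upward and 5.99% downward. One of the 3, TRINITY_DN12122_c0_g1_i2, stood at 2.60 ± 0.61 CPM in red tissue against 6.39 ± 2.2 CPM in white tissue (SD, n = 3 each; edgeR adjusted p = 0.095, and 0.035 with the replicate block).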
